A study of Mus musculus with 6 samples.

Results

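The 10 genes described here are transmitter and identity genes of amacrine cells, the inhibitory interneurons of the inner retina: Gad1, Gad2, Slc32a1, Slc6a9, Chat, Slc18a3, Th, Slc17a8, Tfap2a and Tfap2b. They were chosen by symbol, for their known roles, and all 10 were found among the 28627 genes of the deposited table. The data are poly-A RNA-seq of 6 mouse retina libraries, 3 from Emcn+/+ and 3 from Emcn-/- littermates, all at postnatal day 15 and all from the oxygen-induced retinopathy model, so both genotypes went through the same treatment, and no room-air group is among them. The labels do not say how the Emcn allele was made, and they do not say whether each library came from 1 animal, so p-values measure the spread between these libraries. Values are normalised reads, that is reads divided by 1 scaling factor per library; 1 read is worth 0.924 to 1.09 of them, and each library holds 14865868 to 17087621 reads over its genes. Transcripts of Emcn, the gene of the endothelial sialomucin endomucin, were at 93.3, 80.6 and 100.5 normalised reads in Emcn+/+ replicates 1, 2 and 3 and at 1.95, 1.04 and 4.62 in the Emcn-/- replicates, as the labels have it.

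Amacrine cells receive input from bipolar cells and shape the output of ganglion cells. Most release GABA or glycine, both of which one transporter, the product of Slc32a1, loads into synaptic vesicles. Starburst amacrine cells release acetylcholine together with GABA and underlie direction selectivity, dopaminergic amacrine cells adjust the retina to light level, and a small glutamatergic type carries the vesicular transporter encoded by Slc17a8. Transcription factors of the Tfap2 family mark postmitotic amacrine cells. In oxygen-induced retinopathy high oxygen halts vessel growth in the inner retina, where amacrine cells lie, and the return to room air leaves that layer hypoxic. Gad1, Slc32a1 and the Tfap2 factors are also used by horizontal cells, so reads from whole retina do not come from amacrine cells alone.

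Sequences of 4 promoters are shown because their genes form the 2 pairs of members whose products work together most closely. Chat and Slc18a3 share 1 locus on chromosome 14, where Slc18a3 (GRCm38 32462438 to 32464850, minus strand) lies inside the span of Chat (32408203 to 32465989, minus strand) and shares 0 exonic bases with it in GENCODE M21. Their RefSeq start sites are 1059 bases apart. Gad1 and Gad2 lie far apart on chromosome 2 (70553072 to 70602014 and 22622205 to 22693874, both on the plus strand). The sequences come from RefSeq (GRCm38.p6), run 5′ to 3′ on the gene's strand, and keep only the stretch of the 250 bases before the start that GENCODE M21 places in no exon. Capitals mark matches to the AP-2 consensus GCCNNNGGC, the motif of Tfap2 proteins, which reads the same on both strands.
Chat, chr14:32465990-32466159: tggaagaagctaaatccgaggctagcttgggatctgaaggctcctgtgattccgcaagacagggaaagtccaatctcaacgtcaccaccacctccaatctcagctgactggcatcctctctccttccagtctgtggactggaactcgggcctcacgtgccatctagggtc
Slc18a3, chr14:32464851-32465041: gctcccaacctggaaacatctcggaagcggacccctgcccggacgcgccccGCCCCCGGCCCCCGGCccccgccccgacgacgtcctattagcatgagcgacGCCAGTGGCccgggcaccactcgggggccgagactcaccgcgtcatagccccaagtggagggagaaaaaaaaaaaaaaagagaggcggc
Gad1, chr2:70561879-70562041: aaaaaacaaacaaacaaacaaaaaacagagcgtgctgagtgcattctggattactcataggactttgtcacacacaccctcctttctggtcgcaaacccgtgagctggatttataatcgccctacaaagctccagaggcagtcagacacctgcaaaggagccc
Gad2, chr2:22622077-22622204: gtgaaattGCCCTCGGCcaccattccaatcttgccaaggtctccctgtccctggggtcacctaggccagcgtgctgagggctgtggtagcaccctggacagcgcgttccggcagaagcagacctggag

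The 250 bases before the start held 3 AP-2 matches for Slc18a3, of which 2 overlap each other, and 2 for Gad2, of which 1 falls in the stretch shown. Of the 14 RefSeq windows of the 10 members (some have several start sites), 2 held a match, against 13.7% of the 32841 mouse promoter windows of the same length. A match is a run of letters and not a measured binding site.

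No difference between Emcn-/- and Emcn+/+ retinas passed the test for any of the 10 genes. All 10 passed the filter on low values, 0 passed an adjusted p of 0.05 with limma (adjusted p between 0.838 and 0.953), against 0.00599% of all 16681 tested genes, which is Emcn alone. At an unadjusted p under 0.05 there were 0 members, against 8.14% of all tested genes. edgeR called 0 of the 10 as well, and DESeq2 called 0 of the 6 to which it gave an adjusted p. At an unadjusted p under 0.05 each tool had 0 members, against 8.34% of all genes with edgeR and 5.75% with DESeq2. Log2 fold changes, all on the log2(value + 1) scale, ran from -0.23 for Th to 0.10 for Slc17a8, with 6 below 0 and 4 above 0 (48.0% of all tested genes were below 0) and a median of -0.05 against 0.01 over all tested genes. For 0 members did all Emcn-/- values lie below all Emcn+/+ values (6.94% of all genes), and for 0 did they lie above (7.48%).

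**Figure D1:**
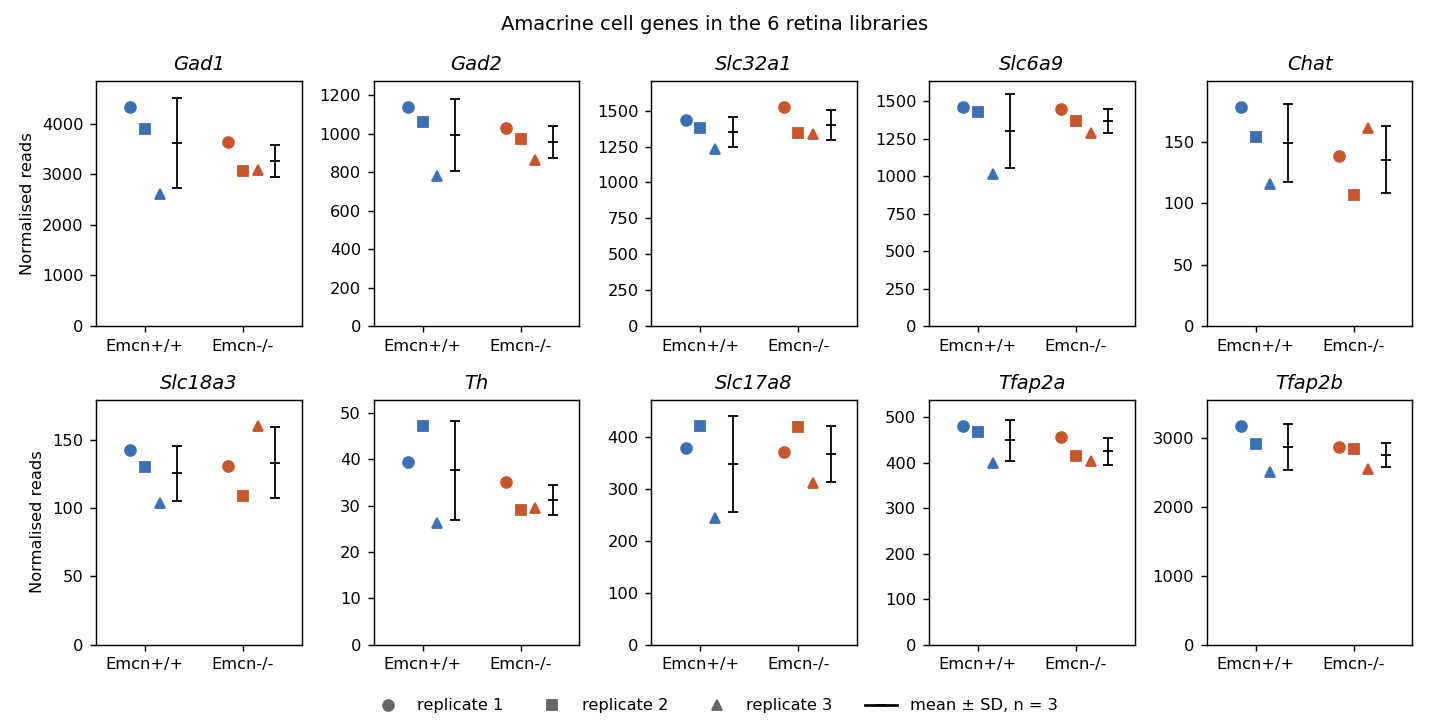
Normalised reads (vertical axes, linear from 0) of the 10 genes in each Emcn+/+ (blue) and Emcn-/- (orange) library, with marker shape for the replicate and bars for the mean ± SD (n = 3). The genotypes overlap in every panel, and Emcn+/+ replicate 3 is the lowest of the 6 libraries in each panel except that of Chat.

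Gad1 encodes the larger glutamate decarboxylase, which makes GABA throughout the cell, and was the member with the most reads. It gave 4322, 3889 and 2614 normalised reads in Emcn+/+ replicates 1, 2 and 3, and 3631, 3061 and 3082 in the Emcn-/- replicates. The Emcn+/+ libraries thus held both the highest values and the lowest one, with all Emcn-/- values in between. Their means were 3608 ± 888 and 3258 ± 323 (SD, n = 3 each), with a log2 fold change of -0.12 ± 0.16 (SE; 95% interval -0.49 to 0.25; limma adjusted p = 0.864).

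Gad2 encodes the smaller decarboxylase, tied to synaptic vesicles. Emcn+/+ libraries had 1137, 1058 and 781 normalised reads and Emcn-/- libraries 1027, 974 and 863, a log2 fold change of -0.04 ± 0.13 (95% interval -0.34 to 0.26). As for Gad1, the Emcn+/+ libraries lay on both sides of the Emcn-/- libraries. Slc32a1 encodes the vesicular transporter shared by GABA and glycine (GRCm38 chromosome 2, 158610767 to 158615748, plus strand). Values of 1437, 1377 and 1234 in Emcn+/+ stood beside 1524, 1344 and 1337 in Emcn-/-, so the groups overlapped, with means of 1349.6 ± 104.5 and 1402 ± 106. The log2 fold change was 0.06 ± 0.08, and its 95% interval of -0.12 to 0.23 runs from 0.919 to 1.17 of the Emcn+/+ level. Of the exonic bases of Slc32a1, 24.9% are shared with Gm14205 on the opposite strand, a gene whose ID the deposited table does not hold, so its level could not be given.

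Slc6a9 encodes the glycine transporter GlyT1, which takes glycine back into glycinergic amacrine cells (chromosome 4, 117834506 to 117875198, plus strand). It gave 1461, 1427 and 1017 normalised reads in Emcn+/+ and 1449, 1369 and 1286 in Emcn-/-. Only Emcn+/+ replicate 3 stood apart from the other 5 libraries, and the log2 fold change was 0.09 ± 0.13 (95% interval -0.20 to 0.38). Of its 5141 exonic bases, 27.8% are shared with Ccdc24 on the opposite strand (339 to 466 normalised reads). The labels leave the strandedness of the libraries unstated, so reads from opposite strands cannot be told apart at such sites.

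Chat encodes choline acetyltransferase, which makes acetylcholine in starburst cells. It gave 178, 154 and 116 normalised reads in Emcn+/+ and 138, 107 and 162 in Emcn-/- (log2 fold change -0.14 ± 0.20, 95% interval -0.60 to 0.32). Here an Emcn-/- library, replicate 2, was the lowest. Slc18a3 encodes the vesicular acetylcholine transporter of the same cells. Emcn+/+ libraries had 143, 131 and 104 and Emcn-/- libraries 131, 109 and 161 (0.08 ± 0.18, 95% interval -0.34 to 0.50). Both cholinergic genes were low in Emcn+/+ replicate 3 and Emcn-/- replicate 2, and both were high in Emcn-/- replicate 3.

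Th encodes tyrosine hydroxylase, the first enzyme of dopamine synthesis (chromosome 7, 142892752 to 142931128, minus strand), and was the member with the fewest reads. It gave 39.4, 47.3 and 26.2 normalised reads in Emcn+/+ and 35.1, 29.04 and 29.6 in Emcn-/-. The Emcn-/- mean was 83.0% of the Emcn+/+ mean, and at these counts the 95% interval of the log2 fold change, -0.84 to 0.38, runs from 0.560 to 1.30 of the Emcn+/+ level. Slc17a8 encodes VGLUT3 (chromosome 10, 89574020 to 89621253, minus strand). Emcn+/+ libraries had 379.6, 423 and 245 and Emcn-/- libraries 372, 420.1 and 311, and in each genotype replicate 3 was the lowest (0.10 ± 0.20, 95% interval -0.34 to 0.55).

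Tfap2a and Tfap2b, the transcription factors, were the members that varied least together with Slc32a1. Tfap2a (chromosome 13, 40715302 to 40738376, minus strand) gave 481, 467 and 399 normalised reads in Emcn+/+ and 458, 414 and 403 in Emcn-/- (-0.08 ± 0.10, 95% interval -0.30 to 0.14). Tfap2b (chromosome 1, 19208914 to 19238576, plus strand) gave 3171, 2913 and 2508 in Emcn+/+ and 2864, 2841 and 2549 in Emcn-/- (-0.05 ± 0.09, 95% interval -0.25 to 0.15). The highest of the 6 values exceeded the lowest 1.21-fold for Tfap2a, 1.23-fold for Slc32a1 and 1.26-fold for Tfap2b, and between 1.44-fold and 1.80-fold for the other members. Expressed as a share of the Emcn+/+ level, the 95% intervals ran from 0.815 to 1.10 for Tfap2a and from 0.839 to 1.11 for Tfap2b. Exons of Tfap2a overlap antisense genes, of which Gm26688, with the longest overlap, had 2.18 to 13.6 normalised reads.

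Levels of different genes were compared per kilobase of exon. In Emcn+/+ retinas Slc32a1 stood at 482.5 ± 37.4 normalised reads per kb, Gad1 at 472 ± 116 and Tfap2b at 452 ± 52.7 (SD, n = 3), and the ranges of these neighbours overlapped, each order holding in 4 of 6 libraries. Slc6a9 followed at 253 ± 48.1, Gad2 at 169 ± 31.8 and Tfap2a at 91.6 ± 9.01, with no overlap between neighbours from Tfap2b down to Tfap2a. Slc17a8 (73.9 ± 19.7) overlapped both Tfap2a above it and Slc18a3 (52.2 ± 8.34) below it. Chat (31.75 ± 6.71) and Th (15.9 ± 4.50) came last, each below its neighbour in 6 of 6 libraries. In Emcn-/- retinas the per-kb levels were 501 ± 37.8 for Slc32a1, 426.5 ± 42.3 for Gad1, 434 ± 27.7 for Tfap2b and 13.2 ± 1.41 for Th.

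What most of the 10 genes shared was a low value in 1 library. Emcn+/+ replicate 3 held the lowest of the 6 values for 9 of the 10 genes, against 17.7% of all tested genes, and for Chat it held the second lowest. Relative to the mean of Emcn+/+ replicates 1 and 2, its levels ran from 60.5% for Th, 61.0% for Slc17a8 and 63.7% for Gad1 to 87.7% for Slc32a1. The median log2 difference was -0.50, against 0.01 over all tested genes. This comparison was chosen after the values were seen. In retina libraries fewer amacrine cells and less RNA per cell cannot be told apart.

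**Figure D2:**
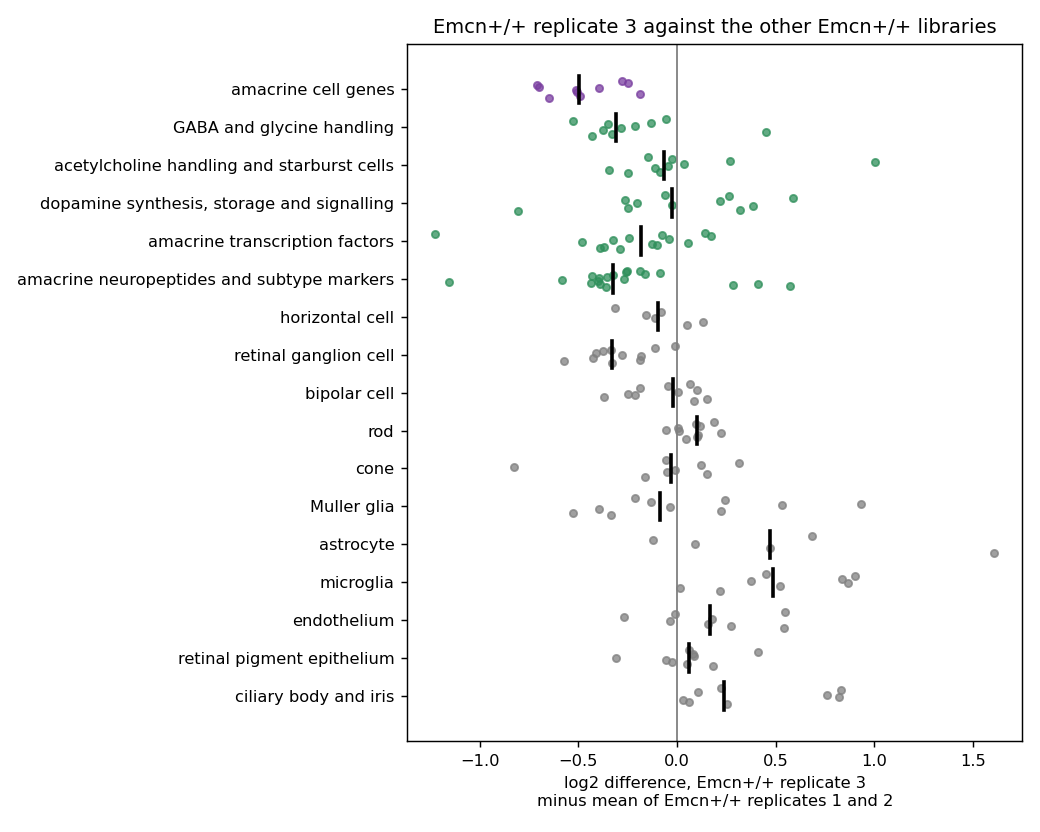
Log2 difference of Emcn+/+ replicate 3 from the mean of Emcn+/+ replicates 1 and 2 (horizontal axis) for each tested gene (points) of the 10 amacrine cell genes (purple), 5 companion lists (green) and 11 marker lists of retinal and neighbouring cell types (grey), with a bar at each median. The 10 amacrine cell genes all lie below 0 with a median of -0.50, the ganglion cell list has a median of -0.33, and the microglial list has 0.49.

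Marker sums of some other cell classes also stood apart in this library, in both directions. The summed level of 11 ganglion cell markers was 15352 normalised reads in Emcn+/+ replicate 3 against 17706 to 19781 in the other 5 libraries, and 9 of the 11 genes had their lowest value there. For 6 horizontal cell markers the sum was 4981 against 5304 to 5870, and 3 were lowest there. These markers were not of 1 direction: 4 of the 6 lay below the mean of Emcn+/+ replicates 1 and 2. Onecut1 and Onecut2 lay above it, at 102.9% and 109.7%. The 10 bipolar markers were within the range of the other libraries (22509, others 22268 to 24759), with 2 lowest there, and so were the 10 rod markers (813675, others 765816 to 894706), with 0. The 5 astrocyte markers summed to 4636 there, to 3969 in Emcn-/- replicate 3 and to 2102 to 2366 in the remaining libraries. The 8 microglial markers summed to 2389, above 1578 to 1947 in the other libraries, of which Emcn-/- replicate 3 was again the highest. The sum of 10 Muller glia markers went the other way, at 74101 in Emcn+/+ replicate 3 and 76881 to 94050 elsewhere, with 4 lowest there. Relative to the mean of Emcn+/+ replicates 1 and 2, only 6 of these 10 were lower, with a median log2 difference of -0.08. Glul, one of the 10, was at 22486 there and at 28856 to 37744 elsewhere, so the sum does not describe the whole list. No marker of these lists was at 0 in all libraries. The same library was the one with female reads, with 19265 normalised reads of Xist and 0 of the Y-linked Ddx3y, against at most 4.63 and at least 1143 elsewhere. The part of cell composition, sex or glial state in the low amacrine values was not tested.

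Taken without Emcn+/+ replicate 3, all 10 log2 fold changes lay below 0 (8025 of 16681 over all tested genes) with a median of -0.15. That library was singled out after the values were seen. It lay below the mean of Emcn+/+ replicates 1 and 2 for all 10 genes, so leaving it out had to lower each fold change. The shift is therefore no separate sign of a genotype difference. Of the 10 genes, 0 passed limma's adjusted p of 0.05, where 0.905% of all genes did (151 genes, 38 higher and 113 lower). Gad1 came nearest, at -0.34 with an adjusted p of 0.0832 (0.0832 to 0.988 over all alternatives), followed by Gad2 at -0.20 with 0.249. These 2 were the members with an unadjusted p under 0.05 there, where 17.0% of all genes had one. Slc32a1 was at -0.01.

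**Figure D3:**
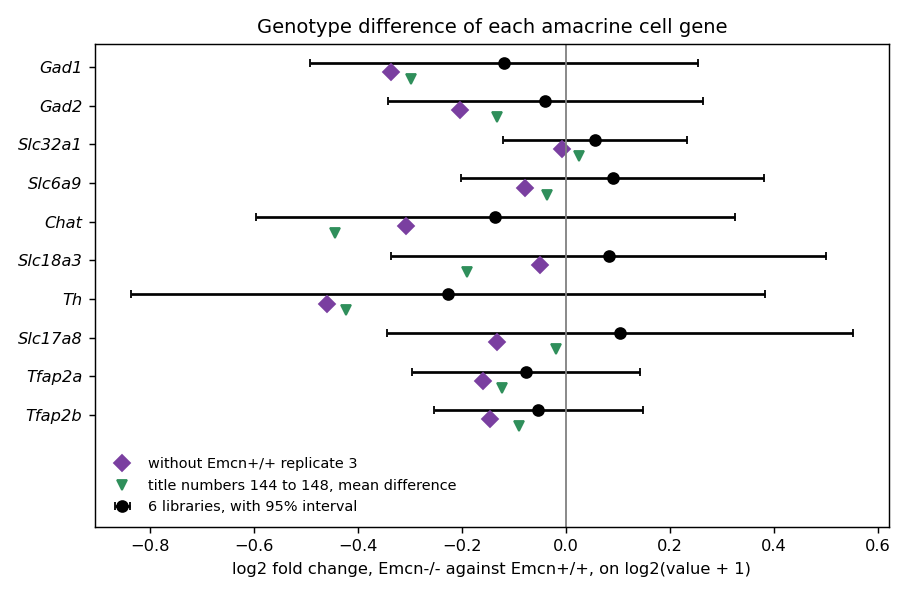
Log2 fold change of Emcn-/- against Emcn+/+ on log2(value + 1) (horizontal axis) for each gene, from all 6 libraries with the 95% interval of the limma fit (black), without Emcn+/+ replicate 3 (purple diamonds) and as the mean difference among the libraries with title numbers 144 to 148 (green triangles). Every black interval includes 0. Each purple diamond lies to the left of its black point, which had to follow from leaving out a library that was low for all 10 genes.

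The sample titles are numbers in 2 series, 144 to 148 (2 libraries of each genotype) and 186 with 188 (1 of each), whose meaning the labels do not give. The astrocyte and microglial marker sums given above were highest in 188 and next highest in 186. Those sums thus also separated the 2 series, and are not a trait of 188 alone. Within 144 to 148 the log2 differences were below 0 for 9 of the 10 genes, with a median of -0.13, and for 6 genes (Gad1, Gad2, Chat, Th, Tfap2a and Tfap2b) both Emcn-/- values lay below both Emcn+/+ values, against 21.5% of all tested genes. The largest were Chat at -0.44, Th at -0.42 and Gad1 at -0.30, and 0 passed an adjusted p of 0.05 in a limma fit of these 4 libraries, against 0.252% of all genes. Gad1 and Chat had an unadjusted p under 0.05 in that fit, as did 13.7% of all genes. Between 186 (Emcn-/- replicate 3) and 188 (Emcn+/+ replicate 3) all 10 differences were above 0, from 0.02 for Tfap2a and Tfap2b to 0.48 for Chat and 0.63 for Slc18a3, with no replicate and so no test. The directions in the 2 series were thus opposite for 9 of the 10 genes. Title number 188 is the library that held the lowest value for 9 of the 10 genes. It is absent from the first series and is subtracted in the second. The opposite directions are therefore not separate from that low library, and the difference between the series was not tested.

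Among themselves the 8 members outside the cholinergic pair varied together over the 6 libraries, with Pearson correlations of log2 values between 0.58 and 0.97 (median 0.82 over 28 pairs). The highest was that of Gad2 with Tfap2b (0.97), and Gad1 with Gad2 had 0.95. Chat and Slc18a3 followed each other (0.89) and followed the others less (0.18 to 0.73, median 0.46 over 16 pairs). These are descriptions over 6 libraries that share their depth, their scaling and the low library.

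The ratio within the cholinergic pair was one of 5 ratios between members, chosen after the values were seen. Slc18a3 per Chat, both per kb, was 1.56, 1.66 and 1.75 in Emcn+/+, against 1.85, 1.99 and 1.94 in the Emcn-/- libraries, so all 3 Emcn-/- libraries lay above all 3 Emcn+/+ libraries (means 1.66 ± 0.0915 and 1.93 ± 0.0678, SD, n = 3). The exact two-sided permutation p was 0.1 (0.5 after Benjamini-Hochberg adjustment over the 5 ratios), which is the smallest that 3 libraries against 3 allow, so the test could not reach 0.05 whatever the values. The intervals from counting error overlap between genotypes, each ratio resting on 95 to 174 reads of Slc18a3 and 103 to 175 of Chat. Such 95% exact intervals were 1.24 to 1.97 in Emcn+/+ replicate 1 and 1.56 to 2.40 in Emcn-/- replicate 3.

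**Figure D4:**
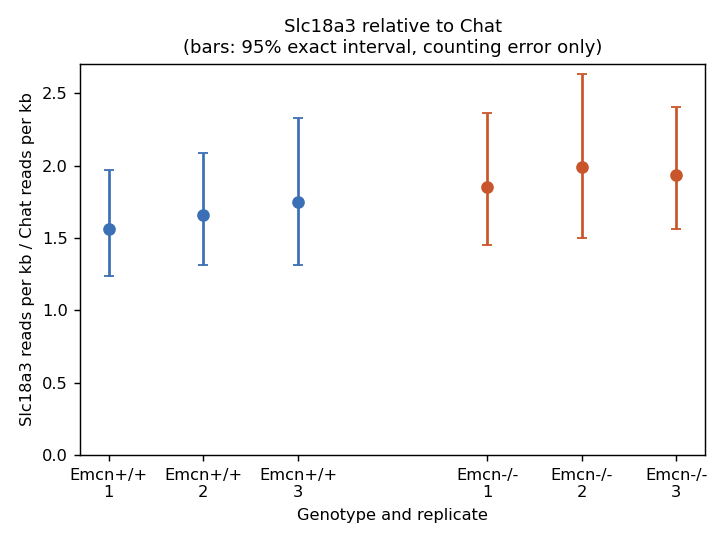
Ratio of Slc18a3 to Chat, both in reads per kb of exon (vertical axis, linear from 0), in each library, with 95% exact binomial intervals that cover counting error only. The Emcn+/+ libraries (blue) lie between 1.56 and 1.75 and the Emcn-/- libraries (orange) between 1.85 and 1.99, with intervals that overlap across the genotypes.

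The other 4 ratios overlapped between genotypes. Gad2 per Gad1 was 0.361 ± 0.0241 in Emcn+/+ and 0.382 ± 0.0276 in Emcn-/- (exact permutation p = 0.4, n = 3), and Tfap2a per Tfap2b was 0.203 ± 0.00597 and 0.200 ± 0.00997 (exact permutation p = 0.6). Tfap2a and Tfap2b kept this ratio between 0.188 and 0.207 in every library, Emcn+/+ replicate 3 included. Slc32a1 per Gad1 ran from 0.908 in Emcn+/+ replicate 1 to 1.29 in Emcn+/+ replicate 3 (exact permutation p = 0.4). Slc6a9 per Slc32a1 was 0.448 there against 0.517 to 0.564 in the other libraries (exact permutation p = 0.9).

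Around the 10 members, 68 further genes of the same transmitter systems and cell subtypes were examined in 5 lists, and 64 of them were tested. None passed limma's adjusted p of 0.05, with 31 above 0 and 33 below 0 and a median log2 fold change of -0.00; 3 were higher and 1 was lower at an unadjusted p under 0.05, against 3.67% higher and 4.47% lower over all tested genes. Emcn+/+ replicate 3 held the lowest value for 28 of the 64 (43.8%).

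Of 10 genes that handle GABA and glycine, 3 were above 0 and 7 below 0 (median -0.02), and 6 were lowest in Emcn+/+ replicate 3. Glul, the glutamine synthetase of Muller glia, had the most reads (22486 in Emcn+/+ replicate 3 and 28856 to 37744 in the other libraries; log2 fold change 0.24 ± 0.16). Slc6a13, the GABA transporter GAT2, had 231, 97.3 and 205 normalised reads in Emcn+/+ and 339, 315 and 339 in Emcn-/- (0.99 ± 0.28, limma adjusted p = 0.451). It was named for its small p, and its genotypes did not overlap, with Emcn-/- above, as for 7.48% of all tested genes. Of the retinal pigment epithelium markers, 9 of 9 tested were above 0, against 8672 of 16681 over all tested genes. Their sum was 8926 to 12345 normalised reads in Emcn-/- against 3802 to 7908 in Emcn+/+, and none of 10 was at 0. Marker by marker, all Emcn-/- values lay above all Emcn+/+ values for 4 of the 9. Ciliary body and iris markers summed to 9274 to 11079 against 5987 to 9444, with 8 of 8 above 0. In both lists 0 markers passed limma's adjusted p of 0.05. The part of these tissues in the Slc6a13 values was not tested. Slc6a5, the glycine transporter GlyT2, had -0.27 ± 0.16 (adjusted p = 0.682).

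Of 10 tested genes of acetylcholine handling and starburst cells, 6 were above 0 and 4 below 0 (median 0.02), and only 2 were lowest in Emcn+/+ replicate 3. Isl1, a factor of starburst, bipolar and ganglion cells, had 1308 to 1369 normalised reads in all 6 libraries. Rnd3 (0.20 ± 0.09, adjusted p = 0.616) and Fezf1 (0.56 ± 0.36, adjusted p = 0.702), which marks the starburst cells of the ganglion cell layer, had the smallest p. Of 11 tested genes of dopamine synthesis and signalling, 8 were above 0 and 3 below 0 (median 0.09), and 5 were lowest in Emcn+/+ replicate 3. Drd4, a dopamine receptor of photoreceptors, had the most reads and was highest in Emcn+/+ replicate 3 (6510 against 4252 to 5954). Ddc makes dopamine from the product of Th and is also found outside amacrine cells. It had 14.5, 10.2 and 6.55 normalised reads in Emcn+/+ and 17.5, 17.6 and 20.3 in Emcn-/- (0.83 ± 0.35, limma adjusted p = 0.600). All Emcn-/- values lay above all Emcn+/+ values, as for 7.48% of all tested genes. Ddc was named for its small p, and its counts are low. Qdpr, which regenerates the cofactor of Th, had 0.12 ± 0.07.

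Of 14 tested amacrine transcription factors, 4 were above 0 and 10 below 0 (median -0.02), and 5 were lowest in Emcn+/+ replicate 3. Ptf1a and Foxn4, which act in amacrine precursors, were at most at 1.04 and 1.95 normalised reads in any library and were not tested. Neurod1, which photoreceptors also express, had the most reads (5738 to 6944). Nfia, a nuclear factor also expressed in glia, had -0.15 ± 0.10 (limma adjusted p = 0.714).

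Of 19 neuropeptide and subtype genes, 10 were above 0 and 9 below 0 (median 0.02), and 10 were lowest in Emcn+/+ replicate 3. Snap25, a synaptic protein of all retinal neurons, had the most reads (14651 in Emcn+/+ replicate 3 and 15450 to 17040 in the others). Penk, the enkephalin precursor, gave 323, 186 and 187 normalised reads in Emcn+/+ and 367, 275 and 362 in Emcn-/- (0.57 ± 0.22, limma adjusted p = 0.561), with overlap through Emcn+/+ replicate 1. Tac1, the substance P precursor, gave 296, 275 and 379 against 440.1, 327 and 407 (0.31 ± 0.15, adjusted p = 0.638). Among the Emcn+/+ libraries Tac1 was highest in replicate 3, where 9 of the 10 members were lowest.

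The genes whose log2 values over the 6 libraries followed the mean of the 10 members most closely, among 11612 genes with a mean of at least 100 normalised reads, were Coch (Pearson r = 0.997), Rasd2 (0.991), Efna5 (0.991), Cacnb4 (0.988) and Ide (0.987). Coch gave 352, 324 and 180.2 in Emcn+/+ and 303, 234 and 250.4 in Emcn-/-. Ide, the insulin-degrading enzyme, gave 3170.4, 2952 and 1509 in Emcn+/+ and 2948, 2117 and 2247 in Emcn-/-. In Emcn+/+ replicate 3 the 5 genes stood at 49.3% to 80.7% of the mean of the other Emcn+/+ libraries. These are the extremes of many genes over 6 libraries and are given as a description.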

How the data were processed

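Whole-retina poly-A RNA was sequenced by the submitters. GRCm38 is the build named, per the submitters' processing notes. Aligner, counter and annotation were not given in the sources used here. Each gene has a read signal in the deposited table, which the authors had scaled by 1 factor per library and not by gene length: 100% of values were whole multiples of 1 step (0.924 to 1.09 normalised reads, tolerance 0.001 of a read). Dividing by the step recovered 14865868 to 17087621 reads per library, so 1 read is worth about 1 normalised read, a count of 0 allows up to 3 reads (2.77 to 3.28 normalised reads), and the ratio intervals reflect counting error alone.

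Genes passing edgeR's expression filter (minimum count 10) on recovered reads, 16681 in all, were fitted with limma 3.58.1 (R 4.3.3, intensity trend) on log2(value + 1), genotype as the only term, Benjamini-Hochberg over all tested genes. Alternatives were TMM scaling, no filter, pseudocount 5, edgeR 4.0.16, DESeq2 1.42.0, the title-number series as a term, removal of a length trend, and each library left out. A fit of title numbers 144 to 148 alone was added after seeing the data, as were the 5 ratios. Scripts were tested on simulated data. Members and lists were chosen with earlier results of these data known. Named genes were the members, Emcn, in each companion list the gene with the highest mean and the 2 with the smallest p, and the 5 most like the members' mean profile. One gene that this rule names is not reported here. Positions and exonic lengths are from GENCODE M21 (GRCm38), promoters from RefSeq (GRCm38.p6).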

Additional observations from a re-analysis of the deposited data

How the results depend on the processing

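Under none of the 14 alternatives did a member pass an adjusted p of 0.05. The median of the members ranged from -0.15 to 0.05 when a library was left out. The members' mean log2 level per library, a different quantity, had a pooled SD between replicates of 0.199. That SD includes the low Emcn+/+ replicate 3 (-0.30, against 0.19 and 0.15 in Emcn+/+ replicates 1 and 2, after centring each gene). The number of genes called over the table was 1 with all libraries, 82 with DESeq2 (67 lower, 15 higher), 42 in title numbers 144 to 148, and 0 to 151 when a library was left out. The cause was not tested. Th and Tfap2a kept their sign throughout. With a library left out the log2 fold change ranged from -0.34 to 0.026 for Gad1, -0.20 to 0.067 for Gad2, -0.0080 to 0.10 for Slc32a1, -0.080 to 0.18 for Slc6a9, -0.31 to 0.024 for Chat, -0.059 to 0.22 for Slc18a3, -0.13 to 0.26 for Slc17a8 and -0.15 to 0.023 for Tfap2b, so the sign of each of these 8 depended on single libraries. In title numbers 144 to 148 Slc6a9 (-0.036), Slc18a3 (-0.19) and Slc17a8 (-0.019) were below 0. The log2 difference of the Slc18a3 to Chat ratio, chosen after the values were seen, was 0.22, and 0.18 to 0.26 with a library left out. Every Emcn-/- ratio lay above every Emcn+/+ ratio, so leaving out a library could not change its sign. The replicate numbers only name libraries in accession order and pair none. With the title-number series as a term, a block that holds both genotypes in each series, 1 gene was called and the members' limma adjusted p ran from 0.672 to 0.889. Depth limits Th most, at 26.2 to 47.3 normalised reads.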
